A study of Mus musculus with 52 samples.

Results

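The marrow of 6-week-old NeuT+ mice with a recorded tumor burden above 0 (3 mice) was compared with that of NeuT+ mice of the same age whose recorded burden was 0 (3 mice). These 6 mice were chosen by their labels alone, from 9 NeuT+ mice of 6 weeks and from 52 arrays in all; the other NeuT+ mice of that age had no burden recorded and were left out of both groups. All were female BALB/c animals carrying the MMTV-NeuT transgene, an activated rat Erbb2 oncogene under a mouse mammary tumor virus promoter that is active mainly in mammary epithelium. The mice with a burden had recorded values of 8615, 54824 and 122315, in a unit that the labels do not give. Their mammary grade was severe dysplasia at 8615 and early carcinoma at 54824 and 122315. Of the burden-0 NeuT+ mice, numbered 1 to 3 here, mice 1 and 2 were graded as mild to moderate dysplasia, and mouse 3 carried a note in Italian that a repeat was under way in place of a grade. In mice 1 and 2 a burden of 0 therefore did not mean a gland free of dysplasia. Non-transgenic siblings (NeuT-) of 6 weeks with a burden of 0 (6 mice) gave the level without the transgene, although the labels also give some of these siblings a dysplasia grade. Each mouse was 1 array of whole bone marrow RNA on an Illumina mouseWG-6 v2.0 bead array, and levels are given as log2 normalized intensity.

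Bone marrow makes neutrophils, red cells, platelets and B cells from stem cells that sit among stromal cells, vessels and the bone surface. Growing mammary tumors of this kind are known to act on marrow at a distance, mainly by raising the output of myeloid cells. Osteoblasts, the cells that build bone, line the marrow space and reach a marrow preparation in varying number. The comparison asks whether the marrow profile of NeuT+ mice goes with the recorded burden at this age.

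The animal numbers in the titles began with 12 or 14 and are called number series here. What separates the series is not given in the labels. Series 12 held the mouse with burden 122315 and burden-0 mice 1 and 2, and series 14 held the mice with burdens 8615 and 54824 and burden-0 mouse 3. Arrays of the same series correlated at 0.990 to 0.994 over the genes tested (6 pairs among the 6 mice), and arrays of different series at 0.987 to 0.991 (9 pairs). Pairs of the same series but different burden had a median correlation of 0.993 (4 pairs), while pairs of the same burden group but different series had a median of 0.989 (4 pairs). The series was therefore a block in the fit, and some of the differences below are also given within each series. Where no such value is given, the difference may still depend on the series. Between 15168 and 16815 probes were detected in mice with a burden, and between 15333 and 16297 in burden-0 NeuT+ mice. Peg3, an imprinted gene that separates the genotypes in this series, had raw signals of 3740 to 5867 in the 6 NeuT+ mice. In the NeuT- mice they were 125.7 to 199.6, so none of the 6 went against its genotype label. That separation was known from these same arrays, so the check is not an independent one. The array's Erbb2 probe reads the mouse gene and was not above background in any of these mice, and it does not check the transgene.

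No gene passed the test between NeuT+ mice with a burden and NeuT+ mice without one. Of 9940 genes tested, 0 passed a limma adjusted p of 0.05, a share of 0%, and the smallest adjusted p was 0.999. At an unadjusted p under 0.05 there were 221 genes (2.22%), of which 98 had higher and 123 lower estimates in mice with a burden. The values of the groups did not overlap for 736 genes (7.4%), 363 of them higher and 373 lower in mice with a burden. The median difference over all genes was -0.0016 on the log2 scale. With 3 mice a group the 95% interval of a gene had a median half-width of 0.36 on the log2 scale, or 1.28-fold. It lay inside a 2-fold difference in either direction for 9583 genes (96.4%) and inside a 1.5-fold difference for 7029 genes (70.7%). Differences over 2-fold were estimated for 9 genes. The 7 with higher estimates in mice with a burden were Bglap, Col2a1, Col1a1, Bglap2, Ibsp, Cpe and Dcn, and the 2 with lower estimates were Atf3 and C130026I21Rik. Every difference between these NeuT+ groups given below for a single gene or list is a description of these mice, and none passed the adjusted threshold.

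Genes of bone and its matrix had the largest estimates. Bglap encodes osteocalcin, a protein that mature osteoblasts secrete into bone. The level of Bglap was 12.02, 11.59 and 11.14 in mice with burdens of 8615, 54824 and 122315, against 10.56, 10.38 and 8.87 in burden-0 NeuT+ mice 1, 2 and 3. The groups did not overlap, and mouse 3 was far below the other two. The estimated difference was 1.92 ± 0.60 (SE) on the log2 scale, with a 95% interval of 0.65 to 3.18. It was 0.67 within series 12 and 2.93 within series 14, and 1.49 when mouse 3 was left out. NeuT- mice ranged from 8.90 to 11.84 with a median of 9.93, so all but 2 of the 6 values lay within the range of mice without the transgene. The mouse with burden 8615 was above that range and burden-0 mouse 3 just below it. In bulk marrow, more cells of a type and more RNA per cell cannot be told apart.

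The stretches from 250 bases before to 50 after the start of Bglap and Ibsp are shown because these 2 osteoblast genes were among the largest estimates and had a RefSeq entry in build GRCm38.p6. Bglap lies at chr3:88384417-88384716 on the minus strand and Ibsp at chr5:104299037-104299336 on the plus strand, and both are printed 5′ to 3′ in the direction of the gene. Capitals mark 2 motifs searched on both strands, the core ACCACA that RUNX factors bind and the TATA letters TATAAA. Both motifs were chosen after the genes were known.
Bglap: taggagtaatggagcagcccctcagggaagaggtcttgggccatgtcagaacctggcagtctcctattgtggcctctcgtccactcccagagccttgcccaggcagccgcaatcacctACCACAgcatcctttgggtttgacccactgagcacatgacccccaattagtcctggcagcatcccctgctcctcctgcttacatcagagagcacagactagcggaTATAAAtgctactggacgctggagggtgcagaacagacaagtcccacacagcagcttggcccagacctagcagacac
Ibsp: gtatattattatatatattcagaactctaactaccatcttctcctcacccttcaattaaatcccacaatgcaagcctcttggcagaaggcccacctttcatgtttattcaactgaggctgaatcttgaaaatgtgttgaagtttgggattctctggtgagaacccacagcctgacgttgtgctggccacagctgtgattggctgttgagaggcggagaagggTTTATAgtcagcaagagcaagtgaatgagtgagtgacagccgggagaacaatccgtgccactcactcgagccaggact
Bglap held ACCACA with its first base at position -132 from the start and TATAAA at -27. Ibsp held the TATA letters in reverse complement (TTTATA) at -28 and no ACCACA in this window. ACCACA or its complement was present in 16.8% of 32851 RefSeq windows of the same length, and TATAAA in 13.6%. A match is a run of letters and says nothing of binding in these mice.

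Bglap2 encodes a near-identical osteocalcin, and its probe and that of Bglap may read each other's RNA. Bglap2 had levels of 12.72, 12.49 and 11.79 in the mice with a burden, in the same order, against 11.64, 11.21 and 9.76 in burden-0 NeuT+ mice 1 to 3. The groups did not overlap, though the nearest mice, both of series 12, were close. The estimate for Bglap2 was 1.68 ± 0.62 (SE), with values of 0.36 within series 12 and 2.84 within series 14. Col1a1, the main collagen chain of bone matrix, had levels of 10.69, 10.46 and 10.03 in mice with a burden and 9.60, 9.72 and 7.73 in burden-0 NeuT+ mice. Its estimate was 1.68 ± 0.69 (SE), with 0.38 within series 12 and 2.84 within series 14. For both genes the estimate was 1.13 without mouse 3.

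Ibsp, the bone sialoprotein gene, showed the same order with a smaller gap. Its levels were 7.90, 7.45 and 6.99 in mice with a burden and 6.97, 6.28 and 5.72 in burden-0 NeuT+ mice, so that the series-12 mouse with the largest burden and burden-0 mouse 1 were almost level. The estimate was 1.16 ± 0.66 (SE) with a 95% interval of -0.24 to 2.55. It was 0.37 within series 12 and 1.95 within series 14, and 0.72 without mouse 3. Col2a1, the collagen of cartilage, had levels of 8.29, 7.43 and 7.41 in mice with a burden and 6.94, 6.11 and 5.18 in burden-0 NeuT+ mice. It was detected on 3 of 3 arrays with a burden and on 1 of 3 without, and its estimate was 1.76 ± 0.65 (SE). The Col2a1 difference was 0.88 within series 12 and 2.68 within series 14, and 1.25 at the lowest when 1 mouse was left out. A second Col2a1 probe gave 1.42.

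**Figure D1:**
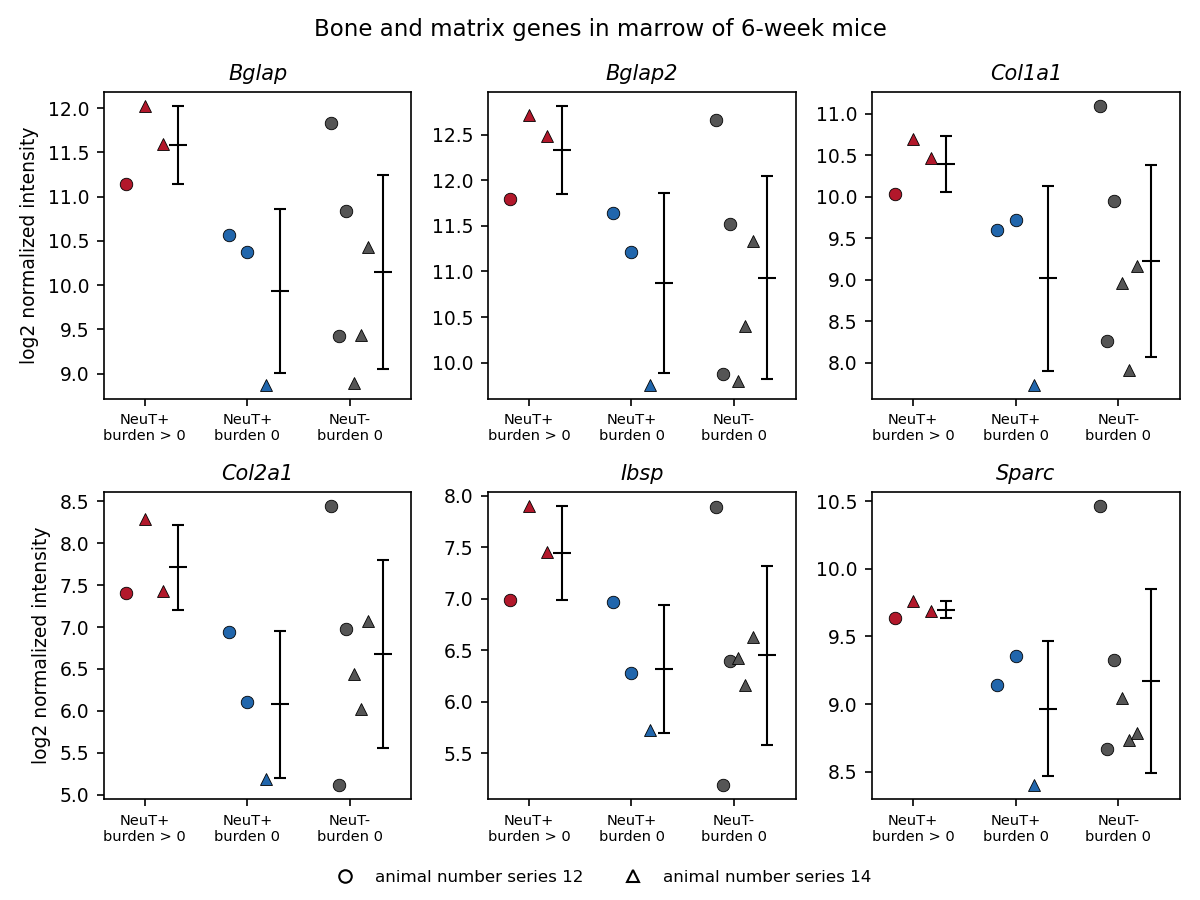
Levels (log2 normalized intensity) of 6 bone and matrix genes in single mice: NeuT+ with burden above 0, NeuT+ with burden 0 and NeuT- with burden 0, all of 6 weeks. Circles are number series 12 and triangles series 14, and the bar beside each group is the mean with SD; the lowest burden-0 NeuT+ mouse in each panel is mouse 3, and the NeuT- mice span most of both NeuT+ groups.

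As a list, osteoblast and osteocyte genes had 7 of 11 members measured. Of these, 0 passed the adjusted threshold and 6 had estimates above 0, a sign shared by 49.5% of all genes tested. The values of 4 members (Bglap, Bglap2, Col1a1 and Ibsp) did not overlap and were higher in mice with a burden, against 3.65% of all genes, and 3 (Bglap, Bglap2 and Col1a1) had an unadjusted p under 0.05 in that direction, against 0.986%. The list's median estimate was 1.16, with 0.36 within series 12 and 1.95 within series 14. Over the alternatives of processing and of mice in the fit, that median ran from 0.29 to 1.95. The other measured members had smaller estimates. Sp7, a transcription factor needed for osteoblast formation, had an estimate of 0.27 and was detected in 1 of the 6 mice, and Alpl, the alkaline phosphatase of mineralizing cells, had 0.29. Phex, a peptidase of osteocytes, was the measured member below 0, at -0.04, and was not above background in the 6 mice. The mean level over the 7 measured genes was 8.78, 8.70 and 8.31 in mice with a burden and 8.16, 7.95 and 7.07 in burden-0 NeuT+ mice. NeuT- mice spanned 7.12 to 8.91, a range that holds 5 of the 6 NeuT+ means.

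Stroma and matrix genes, a list that shares Col1a1 with the bone genes, also had higher estimates in mice with a burden. All 9 of the 15 listed that were measured had estimates above 0 (49.5% of all genes did), with a median of 0.59 (0.39 within series 12 and 1.23 within series 14), and 0 passed the adjusted threshold. The values of 4 members, Col1a1, Sparc, Dcn and Lum, did not overlap between the groups (3.65% of all genes in that direction), and the same 4 had an unadjusted p under 0.05 (0.986% of all genes), each with higher values in mice with a burden. Sparc, a collagen-binding matrix protein, had levels of 9.76, 9.69 and 9.64 in mice with a burden and 9.14, 9.35 and 8.40 in burden-0 NeuT+ mice, and its estimate was 0.90 ± 0.43 (SE). Dcn, the matrix proteoglycan decorin, had levels of 9.28, 9.24 and 8.48 in mice with a burden and 8.18, 8.15 and 7.48 in burden-0 NeuT+ mice. The estimate for Dcn was 1.00 ± 0.44 (SE), with 0.32 within series 12 and 1.78 within series 14, and it was 0.53 without mouse 3. Lum, the proteoglycan lumican, was detected on 3 of 3 arrays with a burden and on 0 of 3 without. By group means it was at least 1.16-fold higher in mice with a burden (limma adjusted p = 0.999). That bound sets the mean of the detected group against the lowest signal that counted as detected on each other array, or the probe's own where higher.

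Cxcl12, the chemokine by which stromal cells hold stem cells and B-cell precursors, had overlapping groups. Its levels were 11.08, 11.87 and 11.43 in mice with a burden and 10.02, 11.78 and 11.71 in burden-0 NeuT+ mice, with an estimate of 0.20 and a 95% interval of -0.75 to 1.15. Col1a2, the partner chain of Col1a1, had an estimate of 0.59 but was detected on only 3 of the 6 arrays, and its difference was -0.49 within series 12 and 1.47 within series 14. Markers of other tissue were mixed. The muscle genes Acta1, Ckm and Myh4 and the mammary genes Epcam, Krt8, Krt18, Krt14, Csn2 and Wap were not above background on any of the 12 arrays of the 3 groups. Other muscle genes were detected on all 12: Mylpf, a myosin light chain of fast muscle, had levels of 8.59, 8.27 and 8.35 in mice with a burden and 7.93, 8.20 and 8.04 in burden-0 NeuT+ mice. The groups did not overlap for Mylpf, and its estimate was 0.40 ± 0.19 (SE), with 0.23 from a second probe. Tnni2, a troponin of fast muscle, and Atp2a1, the calcium pump of fast muscle, had estimates of 0.08 and 0.10. The muscle list had 5 of 10 members measured and a median of 0.10, and its mean level was 6.61 to 6.85 in mice with a burden, 6.63 to 6.75 in burden-0 NeuT+ mice and 6.32 to 6.97 in NeuT- mice. Cdh1, an adhesion protein of epithelia, was the 1 of 17 mammary members measured, was detected on all 12 arrays and had an estimate of 0.13. Adipoq, a hormone of fat cells, was detected on 3 of 3 arrays with a burden, 2 of 3 burden-0 NeuT+ arrays and 6 of 6 NeuT- arrays, with an estimate of 0.20. The part that muscle and fat RNA have in the results was not tested. The part that the amount of bone in each preparation has in the other differences was not tested.

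Megakaryocyte and platelet genes gave smaller estimates than the bone genes, with list medians that were more even between the series. Treml1, a receptor stored in platelet granules, had the smallest p of the higher genes. Its levels were 10.98, 10.69 and 11.29 in mice with a burden and 10.63, 10.81 and 10.07 in burden-0 NeuT+ mice. The groups overlapped, since burden-0 mouse 2 lay above the mouse with burden 54824. The estimate was 0.65 ± 0.17 (SE) with a 95% interval of 0.29 to 1.00, and it was 0.56 within series 12 and 0.77 within series 14. Itga2b, the platelet integrin chain that binds fibrinogen, had levels of 10.07, 9.72 and 10.11 in mice with a burden and 9.76, 9.61 and 9.18 in burden-0 NeuT+ mice, with an estimate of 0.59 ± 0.21 (SE). A second Itga2b probe gave 0.42.

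Of 12 listed megakaryocyte and platelet genes, 9 were measured and all 9 had estimates above 0 (49.5% of all genes did). Their median was 0.44, with 0.42 within series 12 and 0.59 within series 14. None of the 9 passed the adjusted threshold or separated the groups, and 5 had an unadjusted p under 0.05 with a higher estimate (0.986% of all genes): Treml1, Itga2b, Ppbp, Gp6 and Vwf. Ppbp, a platelet chemokine precursor, had an estimate of 0.59, Gp6, the platelet receptor for collagen, of 0.57, and Vwf, the von Willebrand adhesion protein, of 0.44. Without mouse 3 the Gp6 estimate was 0.34. Pf4, the platelet factor 4 chemokine, had an estimate of 0.28 with a 95% interval of -0.69 to 1.25. The lowest estimates of the list were 0.10 for Nfe2 and 0.18 for Tubb1. Gp5, a subunit of the platelet receptor for von Willebrand factor that was not in the list and was chosen after its values were seen, did separate the groups. Gp5 had levels of 10.19, 10.18 and 10.13 in mice with a burden, against 9.68, 9.83 and 9.59 in burden-0 NeuT+ mice and 9.96 to 10.31 in NeuT- mice.

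The megakaryocyte genes were also set beside the mice without the transgene. The list's median estimate against NeuT- mice was 0.09 for mice with a burden and -0.43 for burden-0 NeuT+ mice. Both comparisons use the same NeuT- mice. The mean level over the 9 genes was 10.63, 10.40 and 10.81 in mice with a burden, 10.38, 10.54 and 9.99 in burden-0 NeuT+ mice and 10.26 to 10.86 in NeuT- mice, so that mouse 3 was the one NeuT+ mouse below the NeuT- range.

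**Figure D2:**
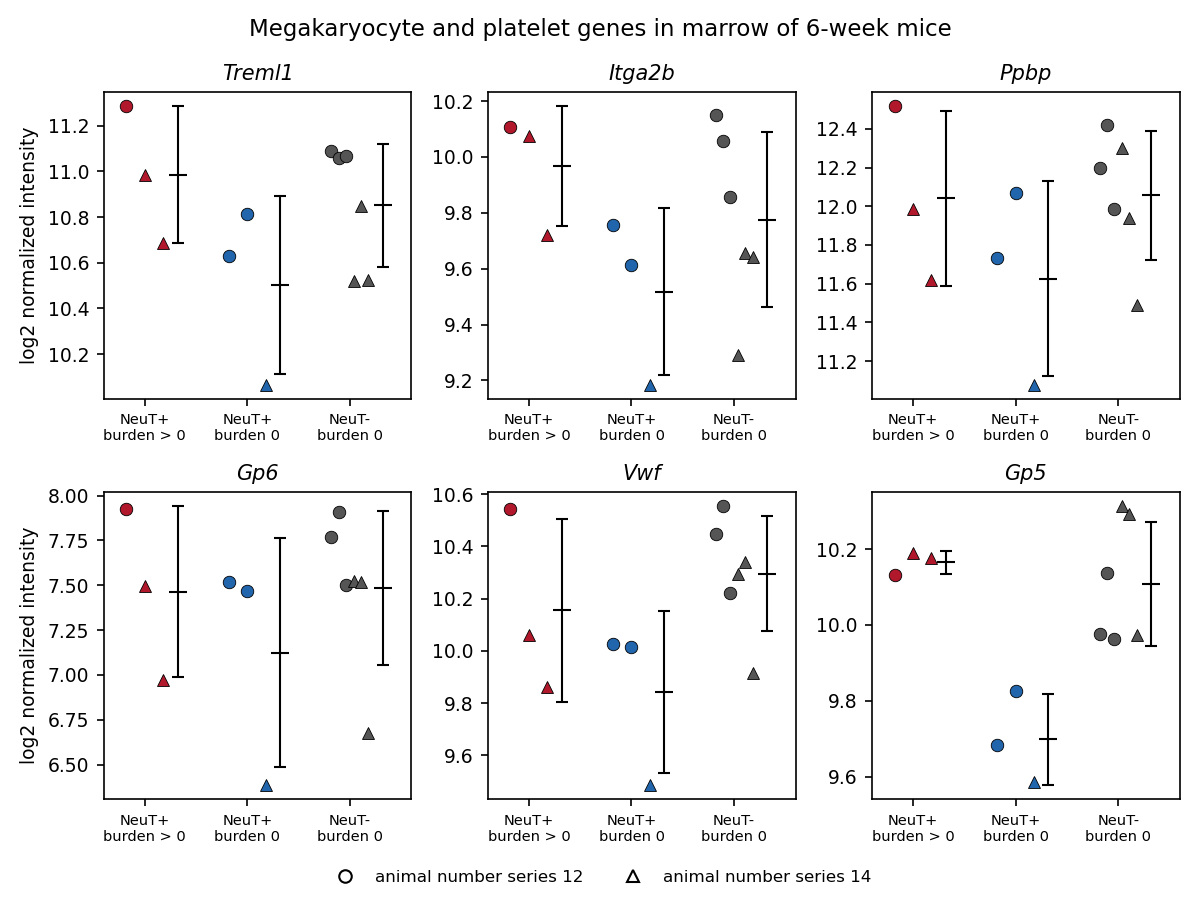
Levels (log2 normalized intensity) of 6 megakaryocyte and platelet genes in single mice of the 3 groups, drawn as for the bone genes with number series 12 as circles and series 14 as triangles and the mean with SD beside each group. Burden-0 NeuT+ mouse 3 is the lowest of the 6 NeuT+ mice in every panel, and Gp5 is the panel in which the NeuT+ groups do not overlap.

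Most measured members of the stress and inflammatory response lists had lower estimates in mice with a burden, with list medians from -0.17 to -0.08. Atf3, a transcription factor that cells switch on early in many kinds of stress, had levels of 7.83, 8.45 and 8.49 in mice with a burden and 9.88, 8.94 and 9.15 in burden-0 NeuT+ mice. The groups did not overlap, and the estimate was -1.10 ± 0.45 (SE) with a 95% interval of -2.06 to -0.14. It was -0.92 within series 12 and -1.01 within series 14. NeuT- mice ranged from 6.95 to 9.34 with a median of 8.33, close to the mice with a burden.

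Immediate early genes, which answer a stimulus without new protein synthesis, had 17 of 18 members measured. Estimates were below 0 for 14 of them, a sign shared by 50.5% of all genes, and the median was -0.17. Atf3 alone had an unadjusted p under 0.05 in that direction (1.24% of all genes), and 3 members (Atf3, Fosb and Klf4) had separate groups with lower values in mice with a burden (3.75% of all genes). The best known members had estimates below 0 with intervals that held 0. Egr1 had an estimate of -0.33 ± 0.33 (SE), with an interval of -1.03 to 0.37. Fos and Jun, the partners of the AP-1 factor, had -0.18 and -0.13. Their intervals were -0.52 to 0.16 and -0.68 to 0.43, so these values do not show that the levels were alike. Against NeuT- mice the list's median was 0.22 for mice with a burden and 0.43 for burden-0 NeuT+ mice.

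Inflammatory cytokine and NF-kB genes had 16 of 20 members measured. Of these, 14 had estimates below 0 (50.5% of all genes did), and the median was -0.15. The median was 0.02 within series 12 and -0.17 within series 14. Tnfaip3, an inhibitor of NF-kB signalling that NF-kB itself induces, had levels of 9.10, 9.93 and 10.03 in mice with a burden and 10.59, 9.93 and 10.57 in burden-0 NeuT+ mice. Its estimate was -0.76 ± 0.30 (SE), and it was -0.45 without the mouse with burden 8615 and -1.18 without the mouse with burden 122315. Within series 12 the mouse with burden 122315 lay between burden-0 mice 1 and 2. Over the alternatives the Tnfaip3 estimate ran from -1.18 to -0.23. Trem1, a receptor on neutrophils and monocytes that amplifies inflammatory signals, had levels of 9.55, 10.15 and 10.06 in mice with a burden and 10.91, 10.35 and 10.48 in burden-0 NeuT+ mice. The groups did not overlap for Trem1, and its estimate was -0.63 ± 0.27 (SE), with a like value in each series (-0.57 and -0.63) and -0.47 from a second probe. Both genes were picked from the list after their values were seen, as the members with an unadjusted p under 0.05 (1.24% of all genes in that direction). The cytokine genes Tnf and Il1b had estimates of -0.07 and -0.16, and Il1a was not above background in the 6 mice.

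Genes of the unfolded protein response, which restores folding capacity in the endoplasmic reticulum, had all 12 members measured. Estimates were below 0 for 9 of them (50.5% of all genes), and the median was -0.08. Dnajb9, a co-chaperone of the endoplasmic reticulum, had levels of 10.25, 10.76 and 10.75 in mice with a burden and 11.47, 10.99 and 11.23 in burden-0 NeuT+ mice, and the groups did not overlap. The estimate was -0.72 ± 0.25 (SE), and a second Dnajb9 probe gave -0.81. Herpud1, which helps remove misfolded proteins, had an estimate of -0.38 with overlapping groups. The central members Hspa5, Ddit3 and Atf4 had estimates of -0.05, -0.11 and -0.05.

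**Figure D3:**
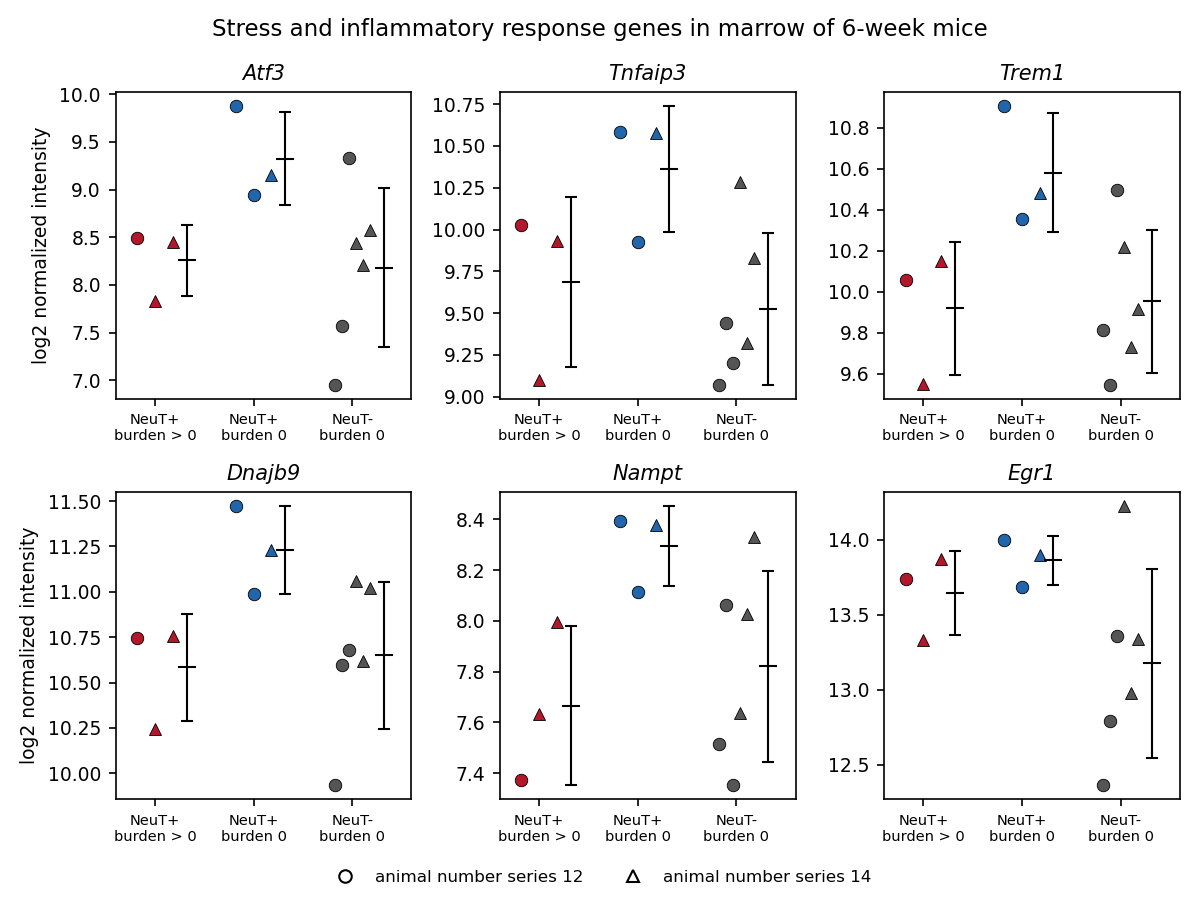
Levels (log2 normalized intensity) of 6 stress and inflammatory response genes in single mice of the 3 groups, with number series 12 as circles, series 14 as triangles and the mean with SD beside each group. All but Egr1 were picked for a small p or for separate groups. The NeuT+ groups do not overlap for Atf3, Trem1, Dnajb9 and Nampt and overlap for Tnfaip3 and Egr1, and the lowest NeuT- mouse lies as low as the lowest mouse with a burden in every panel.

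Outside the lists, the higher genes with the smallest p were a mixed group. Apoe, the lipid carrier that macrophages make in marrow, had levels of 9.77, 9.79 and 9.62 in mice with a burden, against 9.08, 9.24 and 9.42 in burden-0 NeuT+ mice and 9.41 to 9.99 in NeuT- mice. Its estimate was 0.48 ± 0.16 (SE), with 0.46 within series 12 and 0.36 within series 14. Inka1, an inhibitor of the kinase Pak4, had an estimate of 0.47 with groups that did not overlap. Ube2s, the ubiquitin-conjugating enzyme that works with the anaphase-promoting complex, had 0.54, and its groups did not overlap either. Mrvi1, a substrate of cGMP-dependent kinase in platelets and smooth muscle, had 0.44, Hr, a nuclear corepressor, had 0.48, Cpsf4, a subunit of the mRNA cleavage and polyadenylation factor, had 0.35, and Snx32, a sorting nexin, had 0.58. Snx32 was detected on 3 of 3 arrays with a burden and on 1 of 3 burden-0 NeuT+ arrays, and Hr on 3 of 3 and 2 of 3. Cd226, an adhesion receptor of T cells, NK cells and platelets, was detected on 3 of 3 arrays with a burden, 0 of 3 burden-0 NeuT+ arrays and 4 of 6 NeuT- arrays. Named genes had to be detected on at least 3 of the 6 arrays. Cd226 met that rule only through the group where it was higher, so its split in detection adds no support. Its levels in mice with a burden were low, at 6.39, 6.05 and 6.81. By the same bound on group means it was at least 1.11-fold higher in mice with a burden (limma adjusted p = 0.999).

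The lower genes with the smallest p had estimates between -0.35 and -0.74. Nampt, the rate-limiting enzyme of NAD salvage, had levels of 7.63, 7.99 and 7.37 in mice with a burden and 8.39, 8.11 and 8.38 in burden-0 NeuT+ mice. The groups did not overlap, and the estimate was -0.74 ± 0.24 (SE), with -0.88 within series 12 and -0.56 within series 14. Tgif1, a homeobox repressor of TGF-beta signalling, had -0.62, Ythdf3, a reader of m6A marks on RNA, had -0.44, and Zbtb41, a zinc finger protein, had -0.35, each with groups that did not overlap. A second Tgif1 probe, detected in all 6 mice, went the other way at 0.17. Prune1, a phosphodiesterase, had -0.46, the transcription factor Sp4 had -0.71, the nuclear pore protein Ranbp2 had -0.74 and the chaperone partner Dnajc1 had -0.70, each with overlapping groups. For Prune1, 2 other probes detected in all 6 mice gave -0.08 and -0.14, and a second Ranbp2 probe, detected in 3 of the 6, gave -0.26. Sp4 and Dnajc1 were detected on 2 of 3 arrays in each group. Without burden-0 mouse 1 their estimates were -0.43 and -0.45. Gal3st4, a sulfotransferase for glycans, was not detected on any of the 3 arrays with a burden. It was detected on 3 of 3 burden-0 NeuT+ arrays and on 1 of 6 NeuT- arrays. Like Cd226, it met the detection rule for naming only through the group where it was higher. By the same bound on group means it was at least 1.22-fold lower in mice with a burden (limma adjusted p = 0.999). Cblb, an E3 ligase that restrains T-cell activation, also had separate groups. Its levels were 6.43, 7.48 and 6.87 in mice with a burden and 7.81, 7.63 and 7.54 in burden-0 NeuT+ mice, and its estimate was -0.81 with a 95% interval of -1.73 to 0.11.

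**Figure D4:**
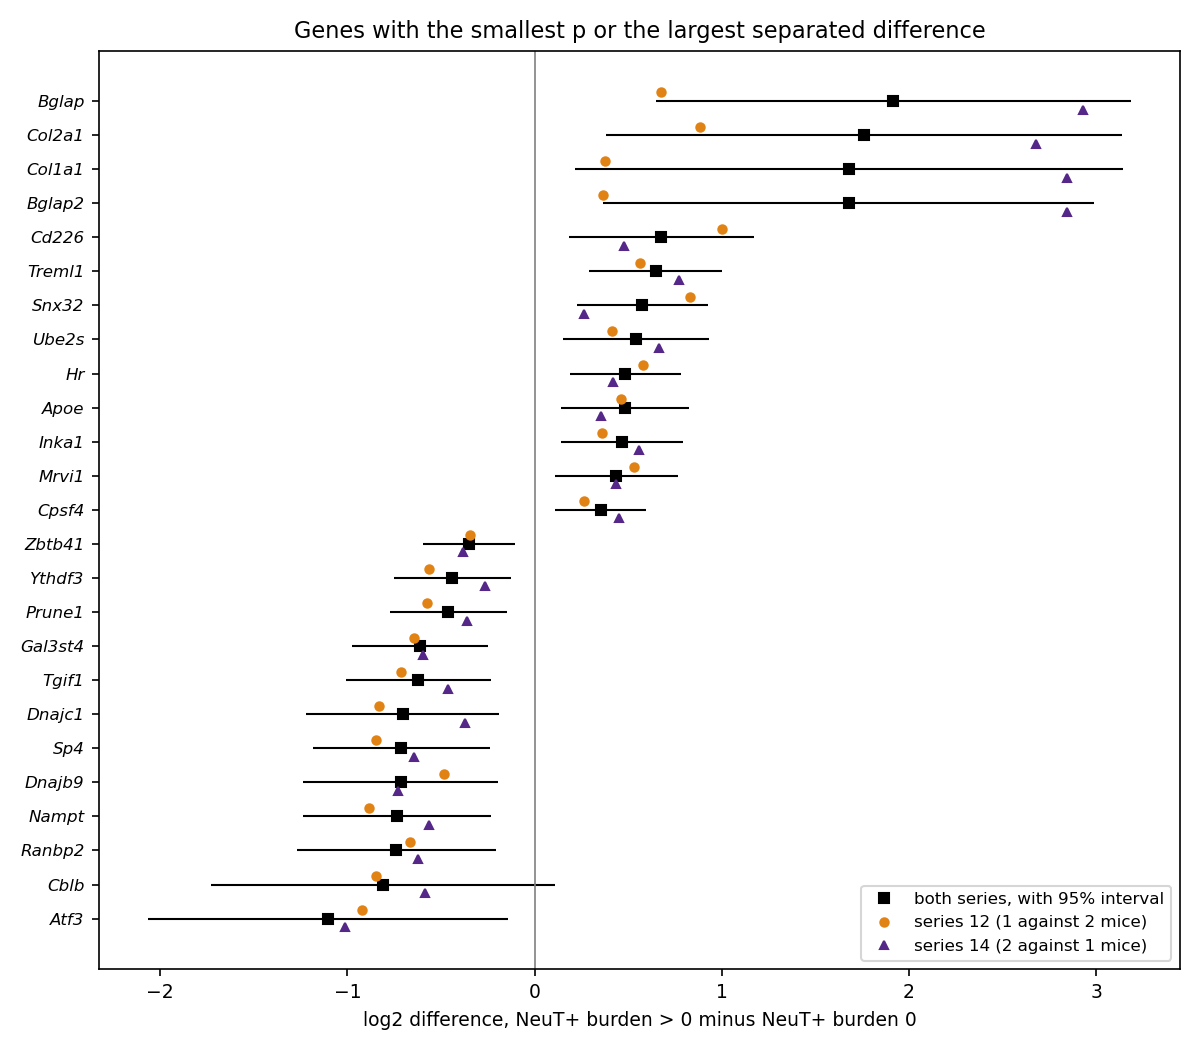
Differences in level (log2, NeuT+ with burden above 0 minus NeuT+ with burden 0) of the genes with the smallest p in each direction and of the largest differences among genes whose groups do not overlap. Squares with lines give the fit over both number series with its 95% interval, circles the difference within series 12 and triangles within series 14; Bglap, Col2a1, Col1a1 and Bglap2 have the widest intervals and the largest gap between the series, and Cblb's interval crosses 0.

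Neutrophil and B-cell lists had median estimates close to 0. Primary granule genes of promyelocytes, the neutrophil precursors, had a median estimate of 0.04 over 9 measured members, all between -0.07 and 0.15. Mpo, the myeloperoxidase gene, had levels of 15.87, 15.89 and 15.90 in mice with a burden and 15.89 in each of the 3 burden-0 NeuT+ mice, near the top of the array's range, where differences are compressed. Its 95% interval was -0.18 to 0.18. Elane, neutrophil elastase, had an estimate of 0.15 and Prtn3, proteinase 3, of 0.06.

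Secondary granule and maturation genes of neutrophils had a median of 0.01 over 13 members. Ltf (lactoferrin), Camp (cathelicidin) and Ngp (neutrophilic granule protein) had estimates of -0.04, -0.03 and 0.01, and the widest of their 95% intervals, that of Camp, was -0.31 to 0.25. All 3 had levels above 15 in the 6 mice, near the top of the range as for Mpo, so that these values do not show that the RNA levels were alike. Genes tied to myeloid suppressor cells, the immature myeloid cells that tumors are known to expand, had a median of 0.01 over 12 of 17 members measured, with S100a8 and S100a9, which form the neutrophil protein calprotectin, at 0.01 each and Cybb, the NADPH oxidase subunit, at 0.21. S100a8 and S100a9 also lay near the top of the range, above 15 in the 6 mice. None of the 3 lists had a member with an unadjusted p under 0.05.

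B-cell development genes had a median of -0.01 over 15 of 19 members measured. Among them 6 estimates were above 0 and 9 below (49.5% and 50.5% of all genes). Cd79b, a chain of the B-cell receptor, had an estimate of 0.06, Ebf1, the factor that commits cells to the B lineage, of -0.08, and Vpreb1, a part of the precursor receptor, of 0.11 with an interval of -0.69 to 0.91. Erythroid genes had 10 of 11 measured members above 0 (49.5% of all genes were) and a median of 0.20. Again no member had an unadjusted p under 0.05. Alas2, the first enzyme of heme synthesis in red cells, had levels of 12.20, 11.66 and 12.15 in mice with a burden and 11.19, 11.94 and 11.60 in burden-0 NeuT+ mice, with an estimate of 0.43 and an interval of -0.08 to 0.94, and 0.25 without mouse 1. Klf1 and Gata1, transcription factors of red cell precursors, had 0.20 and 0.28, and Epor, the erythropoietin receptor, had 0.23. The globin gene Hba-a1 had 0.03, at levels above 15 near the top of the range, where differences are compressed.

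**Figure D5:**
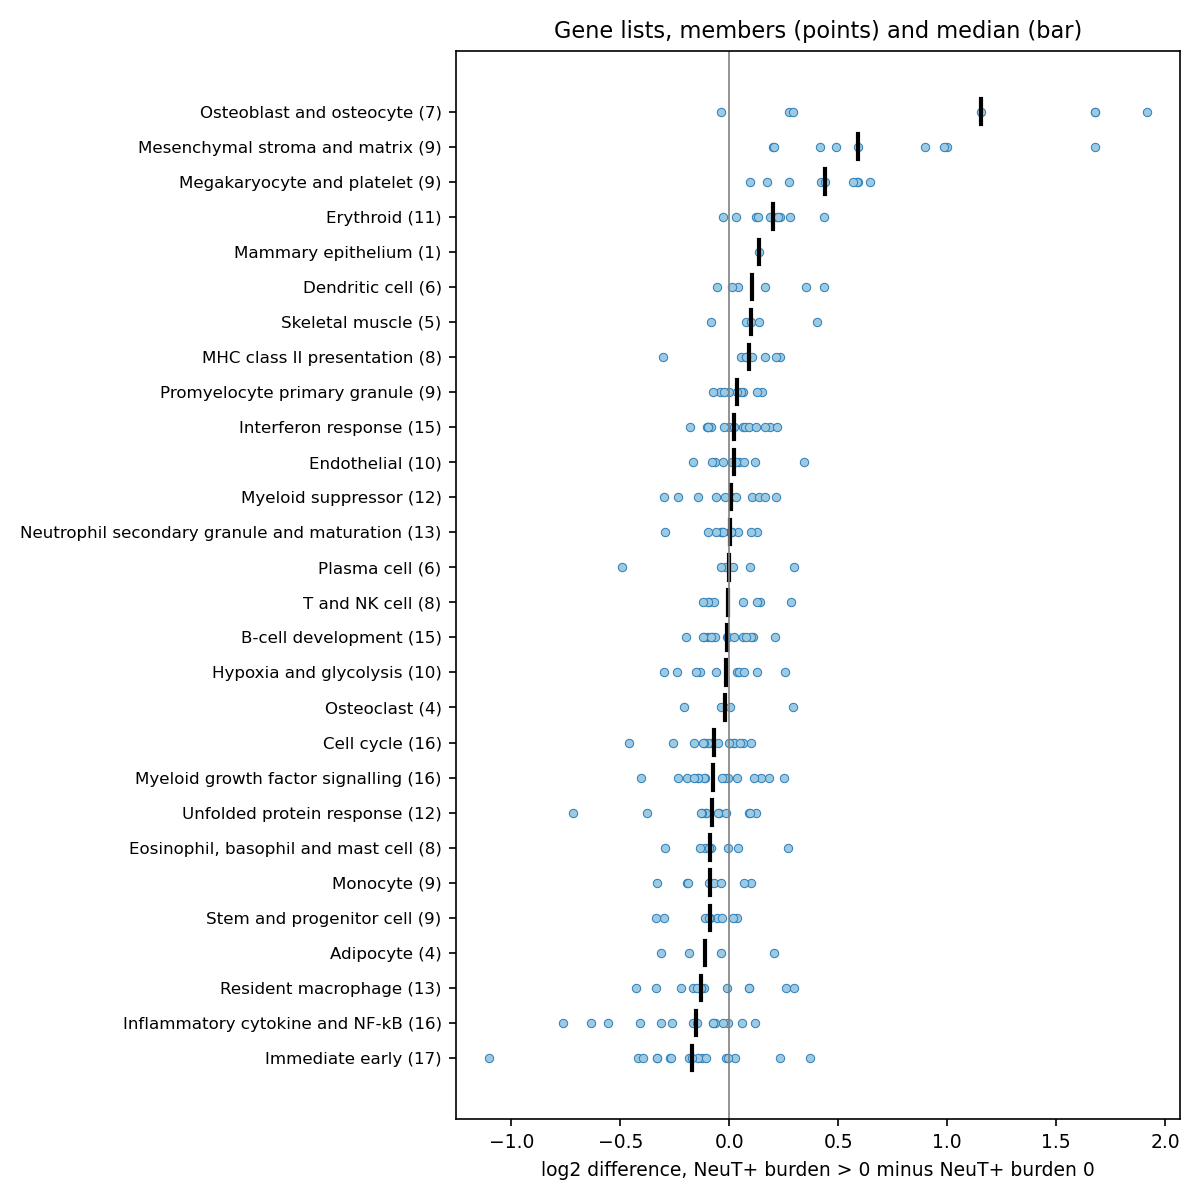
Differences in level (log2, NeuT+ with burden above 0 minus NeuT+ with burden 0) of the members of 28 gene lists, with the number of measured members in parentheses. Points are genes and the black bar is the list's median; the osteoblast, stroma and megakaryocyte lists have the highest medians (1.16, 0.59 and 0.44) and the immediate early list the lowest (-0.17).

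Each NeuT+ group was also set against the same 6 NeuT- mice, which both comparisons share. Peg3 was the 1 gene of 9940 that passed in each (0.0101%). Its estimate was 6.20 ± 0.18 (SE) for mice with a burden (limma adjusted p = 1.06e-12) and 6.28 ± 0.18 for burden-0 NeuT+ mice (limma adjusted p = 8.58e-13). Peg3 was detected on 2 of the 6 NeuT- arrays, and the size of its estimate moved with the processing by more than the SE. With the deposited log2 values it was 4.96 and 5.06, in the same order, and with the mean of probes 4.39 and 4.40. Between mice with and without a burden the Peg3 difference was -0.08 with a 95% interval of -0.54 to 0.38. At an unadjusted p under 0.05 there were 259 genes (2.61%) for mice with a burden and 392 (3.94%) for burden-0 NeuT+ mice.

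Bone and response genes were also set beside the NeuT- mice. Against them the osteoblast list's median was 1.01 for mice with a burden and -0.15 for burden-0 NeuT+ mice, while Atf3 had an estimate of 0.06 for mice with a burden and 1.16 for burden-0 NeuT+ mice. Cd163, the hemoglobin scavenger receptor of resident macrophages, was chosen after its values were seen. It had levels of 7.19, 7.66 and 7.25 in mice with a burden and 7.87, 7.54 and 7.83 in burden-0 NeuT+ mice, all 6 below the lowest NeuT- mouse, where levels ran from 8.27 to 8.72. The difference for mice with a burden was -1.13 ± 0.24 (SE) and did not pass in the fit of all 18 mice, but passed when the compared groups were fitted alone (limma adjusted p = 0.0315).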

How the data were processed

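Bone marrow RNA of 47 mice was measured on 1 array each, beside 5 arrays of a reference RNA. The deposited raw table gave a linear intensity and a detection p-value for each of 45281 probes, and the series' design text names BeadStudio 3.3.8 for the export. The deposited log2 values were made by the authors with lumi and robust spline normalization, per the same text, and were used as an alternative. The design text names a TotalPrep kit and the labels' protocol the DASL assay, which is not settled here.

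Raw intensities of 52 arrays were background corrected and quantile normalized with neqc (limma 3.58.1, R 4.3.3, offset 16). A probe was kept if its detection p was below 0.01 on any of the 18 arrays of 6 weeks, and each gene with 1 symbol was read by its brightest probe, which gave 9940 genes. Symbols came from the platform's annotation, updated through RefSeq: 34885 probes had 1 symbol, 18 had several and 10378 were not listed. The 18 mice fell into 5 groups, by genotype and recorded burden, and were fitted with lmFit and eBayes, with number series 12 against 14 as a block (12 residual degrees of freedom). The Benjamini-Hochberg adjustment ran over all 9940 genes, with a threshold of 0.05. Standard errors and intervals are those of this fit and limma's two-sided test. Each mouse was a separate animal, and precision is limited by the number of arrays. The fit was tested on simulated data.

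Genes named were those past the threshold (at most 20), the 10 with the smallest p in each direction and the 4 largest separated differences in each direction, all detected on at least 3 of the 6 arrays, the first 3 measured members of each list described, and Peg3 and Erbb2; others are said to be chosen later or stand in a count. Genes without an assigned name were left out of the ranked sets. The members and lists were chosen with earlier results of these data known. Alternatives covered normalization, filter, probe choice, block, mice in the fit, grade, burden as a number and each mouse left out.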

Additional observations from a re-analysis of the deposited data

Results flagged for a closer look

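The NeuT+ groups, with 3 mice each, were not tested for mice that stand apart. In the 6 NeuT- mice with a burden of 0, 99 values were checked for a mouse standing apart from the other 5, and 9 did; chance gives about 1 in 20. Replicate 4 gave 4 of them: Prtn3 had a level of 14.7 against 15.1 to 15.3, the promyelocyte list a mean of 13.2 against 13.5 to 13.6, the T and NK cell list a mean of 8.92 against 9.39 to 9.65, and its median correlation with the other arrays of 6 weeks was 0.974 against 0.983 to 0.985. Replicate 1 had a Sparc level of 10.5 against 8.67 to 9.33 and was also the highest NeuT- mouse for Bglap, Bglap2, Col1a1, Col2a1 and Ibsp. Replicate 2 had a Ythdf3 level of 9.16 against 8.87 to 8.98 and an S100a9 level of 15.6 against 15.8 to 15.9. Replicate 3 had a Cblb level of 5.91 against 7.21 to 7.52, and replicate 6 a Gp6 level of 6.68 against 7.50 to 7.91.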

How the results depend on the processing

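Under the 21 alternatives tried, 0 genes passed between NeuT+ mice with and without a burden, with 0.440 as the smallest limma adjusted p over all of them. At an unadjusted p under 0.05 the count ran from 105, without the mouse with burden 8615, to 607, with no detection filter and 19053 genes tested, against 221 as reported. It was 504 with the compared groups fitted alone and 149 without burden-0 mouse 1. Against NeuT- mice, mice with a burden had 2 genes past the threshold when the groups were fitted alone (Peg3 and Cd163). Burden-0 NeuT+ mice had 1 to 2 when a mouse was left out: Gipc2 joined Peg3 without burden-0 mouse 1, and Zcchc14 joined it without NeuT- replicate 4. For the comparison between the NeuT+ groups, leaving out NeuT- replicate 4 was added after the data were seen. Each array was a separate mouse and the labels give no pairing of mice between groups, so no paired analysis was run. The number of arrays limits the precision, and Lum, Cd226 and Gal3st4 have bounds only. List medians also moved with the processing and the mice fitted. Over the alternatives the osteoblast list's median ran from 0.29 to 1.95, and the stroma list's from 0.31 to 1.23. The megakaryocyte list's ran from 0.33 to 0.59.

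The remaining sign changes were of genes whose 95% interval held 0, and the cause was not tested. With the authors' deposited log2 values S100a9 was -0.013. With median scaling Peg3, Tnf, Ltf, Camp, Hspa5 and Atf4 were 0.0099, 0.0021, 0.00013, 0.023, 0.041 and 0.016. Without the series block Tnf, Mpo and Atf4 were 0.083, -0.0029 and 0.14, with it as a random block 0.015, -0.0014 and 0.060, and with the groups fitted alone Tnf was 0.0047. Within series 12 Col1a2, Fos, Jun, Tnf, Il1b, Prtn3, Camp, Atf4 and Ebf1 were -0.49, 0.033, 0.11, 0.19, 0.088, -0.12, 0.16, 0.021 and 0.23. Within series 14 Cxcl12, Il1a, Mpo, Ltf, Hspa5, S100a8, S100a9, Cd79b and Hba-a1 were -0.24, -0.24, -0.012, 0.0033, 0.66, -0.013, -0.039, -0.054 and -0.0028. With early carcinoma against mild to moderate dysplasia Prtn3, Camp and Ebf1 were -0.019, 0.044 and 0.068. Leaving out 1 mouse at a time gave ranges of -0.22 to 0.084 for Peg3, -0.35 to 0.24 for Il1a, -0.0055 to 0.0077 for Mpo, -0.016 to 0.033 for Ngp, -0.45 to 0.43 for Hspa5, -0.026 to 0.034 for S100a9, -0.026 to 0.031 for S100a8, -0.13 to 0.12 for Cd79b, -0.30 to 0.049 for Tnf, -0.0057 to 0.20 for Prtn3, -0.13 to 0.036 for Atf4, -0.30 to 0.039 for Ebf1, -0.15 to 0.056 for Camp, -0.30 to 0.53 for Cxcl12, -0.34 to 0.067 for Jun, -0.084 to 0.43 for Cybb and -0.054 to 0.26 for Vpreb1.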
